A study of Mus musculus with 2 samples.

Results

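Short fragments of the microRNA hairpins Mir296 and Mir298 were examined in J1 cells, a line of mouse embryonic stem cells of strain 129S4/SvJae. The cells were kept for 24 h with SB431542 at 3 µM, which blocks the kinase activity of the activin, Nodal and TGF-beta type I receptors, or for 24 h with an equal volume of its solvent, DMSO. Both groups were grown on gelatin in Knockout Serum Replacement medium with 1000 U/mL of LIF, which holds mouse stem cells undifferentiated, and each group had 1 library of a single cell line. The deposited tables list read counts of distinct sequences of 3 to 17 nt and stop short of the length of a mature miRNA. What is counted here are therefore fragments, and full-length miRNAs were not analysed here. Members were all sequences of 15 to 17 nt that match either hairpin exactly, over their full length and on the sense strand. They numbered 14 of the 952 distinct sequences assigned to miRNA hairpins and 96471 of that length, and held 1459 of 99715 miRNA reads. The pair was chosen from its read counts in these libraries, so the levels below are descriptions. With 1 library in each group there was no replicate check and no test between groups, and the intervals describe counting error alone. In such bulk libraries fewer cells with a miRNA and less of it per cell cannot be told apart.

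Dicer cuts a miRNA hairpin into a 5p and a 3p strand, and the strand retained by an Argonaute protein finds its targets mainly through its seed, bases 2 to 8. Mir296 and Mir298 are a pair of neighbouring hairpins of the imprinted Gnas region, known to be expressed from the paternal allele with the long noncoding RNA Nespas. In mouse embryonic stem cells miR-296 has been reported to act on the coding sequence of pluripotency factor mRNAs, Nanog among them. Mouse miR-298 has been reported to lower Bace1, the beta-secretase. The GRCm38 annotation places both on chromosome 2, minus strand, with Mir296 (ENSMUSG00000065521.1) at chr2:174267047-174267125 and Mir298 (ENSMUSG00000065410.1) at chr2:174267504-174267585, with 378 bases between them. No other annotated gene overlaps either hairpin. Annotated Nespas (chr2:174281237-174295436) is on the same strand and ends 13651 bases upstream of Mir298, and Gnas lies on the plus strand.

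The hairpins and their mature strands show where the fragments fall. They are given 5′ to 3′ as in RefSeq (GRCm38.p6), with the mature strands of a hairpin and the seed of a mature miRNA in capitals.
Mir296 hairpin: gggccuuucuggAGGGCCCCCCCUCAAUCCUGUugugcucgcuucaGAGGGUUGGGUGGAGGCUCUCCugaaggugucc
Mir298 hairpin: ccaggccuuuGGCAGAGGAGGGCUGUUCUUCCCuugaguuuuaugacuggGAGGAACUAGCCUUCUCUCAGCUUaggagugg
mmu-miR-296-5p: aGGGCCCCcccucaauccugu
mmu-miR-296-3p: gAGGGUUGgguggaggcucucc
mmu-miR-298-5p: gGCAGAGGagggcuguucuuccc
mmu-miR-298-3p: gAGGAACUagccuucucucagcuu
The 4 seeds differ from each other, and no other mature miRNA in that table carries any of them.

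Nearly all fragments of the pair came from a single strand, miR-296-3p. It had 262 reads in the SB431542 library and 1184 in the DMSO library. The opposite strand, miR-296-5p, had 2 reads with SB431542 and 4 with DMSO. Mir298 had 1 read with SB431542 and 6 with DMSO, all with their midpoint on its 5p side though 1 of the DMSO reads lies outside the mature strand, and miR-298-3p had no read in either library. At these depths 3 reads correspond to 138 RPM (reads per 1000000 reads assigned to miRNAs) with SB431542 and 38.5 RPM with DMSO, which is the level that 0 reads of miR-298-3p allow. No read of 15 to 17 nt was antisense to either hairpin.

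**Figure D1:**
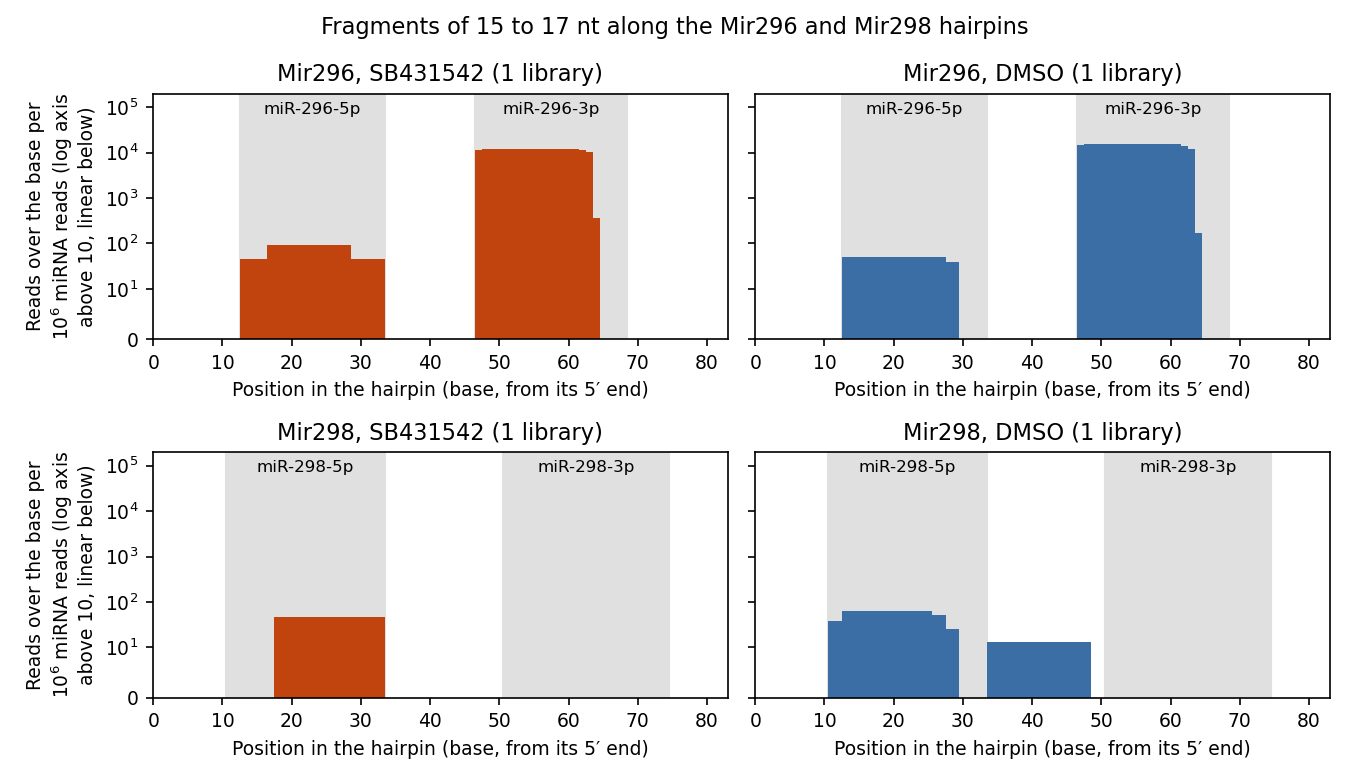
Reads over each base of the Mir296 and Mir298 hairpins, in RPM on an axis that is logarithmic above 10, in 1 library per group, with the mature strands shaded. The block over miR-296-3p stands near 12014 RPM with SB431542 and 15198 RPM with DMSO, while all other blocks lie under 100 RPM.

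The fragments that carry this signal are shown as read, with the bases of the seed in capitals. These are the 5 sequences of miR-296-3p.
17 nt from base 1: gAGGGTTGggtggaggc
16 nt from base 1: gAGGGTTGggtggagg
15 nt from base 1: gAGGGTTGggtggag
17 nt from base 2: AGGGTTGggtggaggct
16 nt from base 2: AGGGTTGggtggaggc
The 17 nt sequence from base 1 alone had 219 reads with SB431542 and 931 with DMSO. Its 16 nt form had 25 and its 15 nt form 9 reads with SB431542, against 153 and 84 with DMSO. From base 2, the 17 nt form had 8 reads with SB431542 and 13 with DMSO, and the 16 nt form 1 and 3. In RPM that 17 nt form stood at 367 with SB431542 and 167 with DMSO, and the counting interval of its log2 ratio, 1.17 (-0.34 to 2.52), includes 0. Each of the 5 holds the whole seed and lacks the last 4 to 7 bases of the mature strand, which is 22 nt long. The 15 and 16 nt forms from base 1 also occur in a retained-intron transcript of Dennd6b, whereas both 17 nt forms matched no other annotated gene.

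Start positions were nearly fixed. Of the miR-296-3p reads, 96.6% began at the first base of the mature strand with SB431542 (95% Clopper-Pearson interval 93.6 to 98.4) and 98.6% with DMSO (97.8 to 99.2). Every other read began at base 2, at 3.44% with SB431542 (1.58 to 6.42; 9 reads) and 1.35% with DMSO (0.774 to 2.19; 16 reads). These intervals overlap, but the shares were not compared directly. Such a sharp 5′ end was common among miRNA arms. Arms whose reads summed to 50 or more are called described here, and numbered 43. Of the 40 other described arms with a RefSeq mature form, 32 had their commonest start at its first base, and the median share of reads there was 96.3% with SB431542 and 97.1% with DMSO.

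Single-base changes at the end of these fragments were rare. Sequences that differ from miR-296-3p in their last base alone had 0 reads with SB431542 and 2 with DMSO, both ending in A. Over all other miRNA arms such sequences made up 0.342% with SB431542 (0.269 to 0.430; 74 reads) and 0.255% with DMSO (0.220 to 0.293; 196 reads). One other changed base was seen in 1 read with SB431542 and 3 with DMSO.

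Fragments of miR-296-3p were long within this length class. Those of 17 nt made up 86.6% of its reads with SB431542 (81.9 to 90.5) and 79.7% with DMSO (77.3 to 82.0). Over all other miRNA arms together the 17 nt share was 26.1% with SB431542 and 24.8% with DMSO, and without the most abundant arm, miR-293-3p, 31.4% and 30.5%. Their commonest length was 16 nt with that arm and 15 nt without it, in both libraries. The median 17 nt share of the 42 other described arms was 52.1% with SB431542 and 52.3% with DMSO. A higher 17 nt share than that of miR-296-3p was found in 4 of those arms with SB431542 and in 10 with DMSO. The share of miR-296-3p was 6.91 percentage points higher with SB431542 than with DMSO. Of the 42 other described arms 25 had a higher 17 nt share with SB431542, 8 of them by more than miR-296-3p, with a median difference of 0.882 points. Among all reads of 15 to 17 nt the share was nearly equal, at 49.1% with SB431542 and 49.5% with DMSO.

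**Figure D2:**
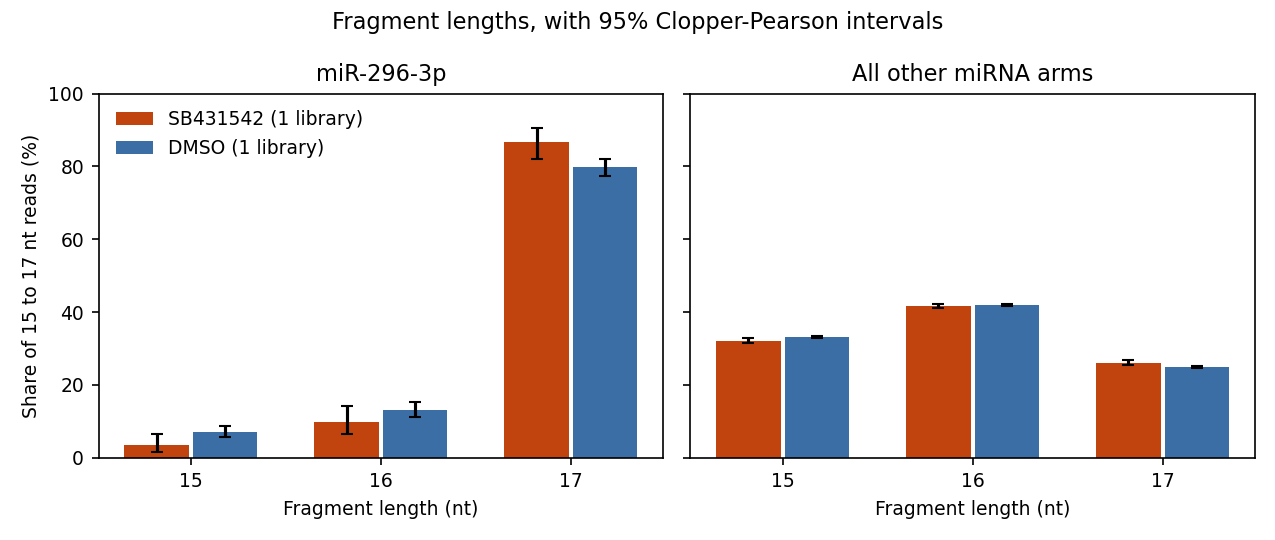
Share of reads of 15, 16 and 17 nt for miR-296-3p and for all other miRNA arms together, in 1 SB431542 and 1 DMSO library, with 95% Clopper-Pearson intervals as error bars. For miR-296-3p the 17 nt bars stand at 86.6% and 79.7%, while the other arms, miR-293-3p included, lie between 24.8% and 42.0% at each length.

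The level of miR-296-3p was lower in the SB431542 library, at 12014 RPM, than in the DMSO library, at 15198 RPM. It made up 1.20% of miRNA reads with SB431542 (1.06 to 1.35) and 1.52% with DMSO (1.44 to 1.61), a log2 ratio of SB431542 to DMSO of -0.34 (exact conditional interval -0.54 to -0.14), or 1.26-fold lower. In the order of arms by RPM it stood at place 8 of 243 with SB431542 and at place 5 of 304 with DMSO. With SB431542 its neighbours in that order, miR-431-3p at 12243 RPM and miR-411-5p at 11785 RPM, were within its counting error. With DMSO the next arm above, miR-409-3p, had 96667 RPM and the next below, miR-148b-3p, 12284 RPM. These places depend on the equal division of reads shared between miRNAs. The near-equal miR-27a-3p and miR-27b-3p each had 12610 RPM with SB431542, above miR-296-3p. With DMSO they had 8529 and 8542 RPM, below miR-296-3p. Counted together, they would stand above it in both libraries. A log2 ratio below that of miR-296-3p was found for 10 of the 43 described arms, whose median was 0.13.

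The size of that ratio depended on the scale. The log2 ratio of all Mir296 reads was -0.33 (-0.53 to -0.14) in RPM and -1.23 (-1.43 to -1.04) per reads of 15 to 17 nt, since miRNA reads made up 4.21% of those with SB431542 and 7.87% with DMSO. Reads of the whole length class had a mean GC content of 64.2% with SB431542 and 60.7% with DMSO, and those of miR-296-3p 70.1% and 70.0%. A GC correction gave -0.65 for Mir296 in RPM, further below 0.

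By length, the miR-296-3p sequences that begin at base 1 were all lower with SB431542 when scaled to the miRNA reads of their own length, in RPM of that length. The 17 nt sequence stood at 37398 with SB431542 and 46529 with DMSO (log2 -0.31, -0.53 to -0.10). The 16 nt sequence had 2776 with SB431542 and 4729 with DMSO (log2 -0.74, -1.44 to -0.15). For 15 nt the values were 1296 and 3288 (log2 -1.27, -2.52 to -0.35). The 3 intervals overlap, but overlap does not compare the ratios with each other, and an order of the lengths was not tested. Just outside the length limit, the 14 nt sequence from base 1 had 8 reads with SB431542 and 73 with DMSO, close to the 9 and 84 reads of the 15 nt sequence just inside it, and the 13 nt sequence had 0 and 9. The log2 ratio of the 14 nt sequence was -1.001 (-2.34 to -0.02), above that of the 15 nt sequence. The 13 nt sequence also matched 7 other genes and the 14 nt sequence 1.

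**Figure D3:**
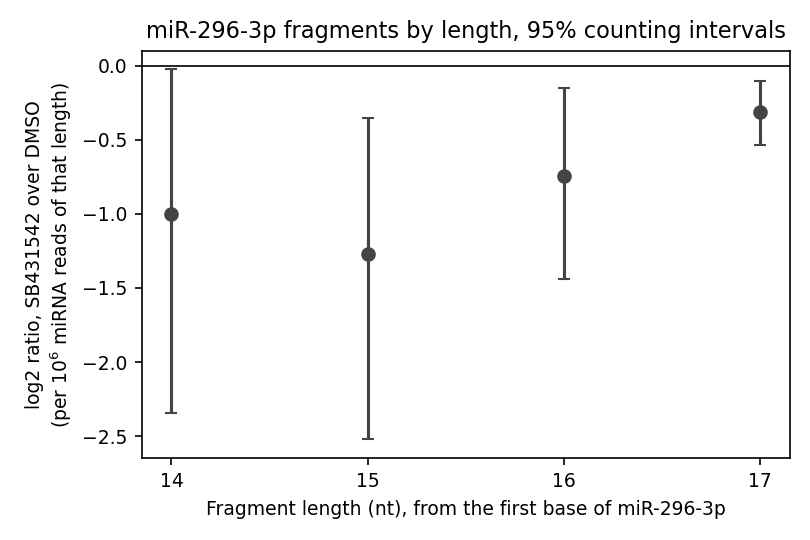
The log2 ratio of SB431542 to DMSO for the miR-296-3p sequences of 14 to 17 nt that begin at base 1, each scaled to the miRNA reads of its own length, with 95% counting intervals from 1 library per group. All 4 points lie below 0, from -1.27 at 15 nt to -0.31 at 17 nt, with overlapping intervals.

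The minor strands had too few reads for a comparison. For miR-296-5p the main sequence, with the seed in capitals, is shown with both sequences of Mir298 that had more than 1 read.
miR-296-5p, 17 nt from base 1: aGGGCCCCccctcaatc
miR-298-5p, 17 nt from base 1: gGCAGAGGagggctgtt
miR-298-5p, 17 nt from base 3: CAGAGGagggctgttct
The miR-296-5p sequence had 0 reads with SB431542 and 3 with DMSO. The 3 remaining reads of that strand were a 16 nt form from base 1 and a form ending at the last mature base, each with 1 read with SB431542, and a 15 nt form from base 1 with 1 read with DMSO. Each of the Mir298 sequences shown had 0 reads with SB431542 and 2 with DMSO. The single Mir298 read with SB431542 ended at the last base of miR-298-5p, and the remaining DMSO reads were a 15 nt form from base 1 and a read of bases 34 to 48, between the mature strands. Of the 6 DMSO reads on that side, 5 thus overlap mature miR-298-5p, which gives a 5p share of 83.3% (35.9 to 99.6) when arms are set by overlap. In RPM the 5p side of Mir298, that read included, stood at 45.9 with SB431542 and 77.0 with DMSO (log2 -0.28, -6.27 to 2.30), and miR-296-5p at 91.7 and 51.3 (log2 0.99, -2.63 to 3.64), so no difference was detectable at this depth.

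The balance of strands and of hairpins was one-sided in both libraries. The 3p strand supplied 99.2% of Mir296 reads with SB431542 (97.3 to 99.9; 264 reads) and 99.7% with DMSO (99.1 to 99.9; 1188 reads). One-sided hairpins were the rule, since the leading arm of the 42 other hairpins with at least 50 reads had a median share of 100.0% in both libraries and led by the 3p arm in 27. Of the reads of the pair, Mir296 held 99.6% with SB431542 (97.9 to 99.99) and 99.5% with DMSO (98.9 to 99.8). Among reads on the 5p side of both hairpins, Mir296 supplied 2 of 3 with SB431542 (9.43 to 99.2%) and 4 of 10 with DMSO (12.2 to 73.8%). Annotated transcripts of Nespas and Gnas gave few fragments. Reads that matched Nespas and no other gene numbered 0 with SB431542 and 2 with DMSO, and those of Gnas 1 in each library. Sequence outside annotated transcripts, such as that between Nespas and Mir298, was not searched.

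Set against all described arms, the ratio of miR-296-3p was modest. Of the 4 strands of the pair, 1 was described, and in RPM it was past 2-fold in neither direction. Per reads of 15 to 17 nt its log2 ratio was -1.24, over 2-fold lower, on a scale where 15 of the 43 described arms were at least 2-fold lower. Of the 43 described arms, 6.98% were at least 2-fold higher with SB431542 and 4.65% at least 2-fold lower, together 11.6%. The higher ones were miR-5126-3p, miR-6236-5p and miR-6538-5p, named after their values were seen. At the first mature base began 18.3% of miR-5126-3p reads with SB431542 and 12.0% with DMSO. For miR-6538-5p these shares were 9.03% and 13.6%, and for miR-6236-5p no mature start was compared. A counting interval wholly below 0 was found for 23.3% of the 43 described arms, as for miR-296-3p. The arms nearest to it in log2 ratio over the 2 libraries were miR-101b-3p at -0.33 (-1.03 to 0.27), miR-182-3p at -0.37 (-1.40 to 0.46) and miR-433-3p at -0.40 (-1.28 to 0.33). They had 13 to 25.5 reads with SB431542 and 62 to 116.5 with DMSO, far fewer than miR-296-3p, and their intervals include 0. Reads of miR-101b-3p are fractional because sequences shared between miRNAs were divided. Those labelled miR-182-3p had their commonest start at -18 bases from its mature start, with 100% of reads with SB431542 and 95.2% with DMSO. Fragments of up to 17 nt from there end before the mature strand, so the label names a side of the hairpin.

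**Figure D4:**
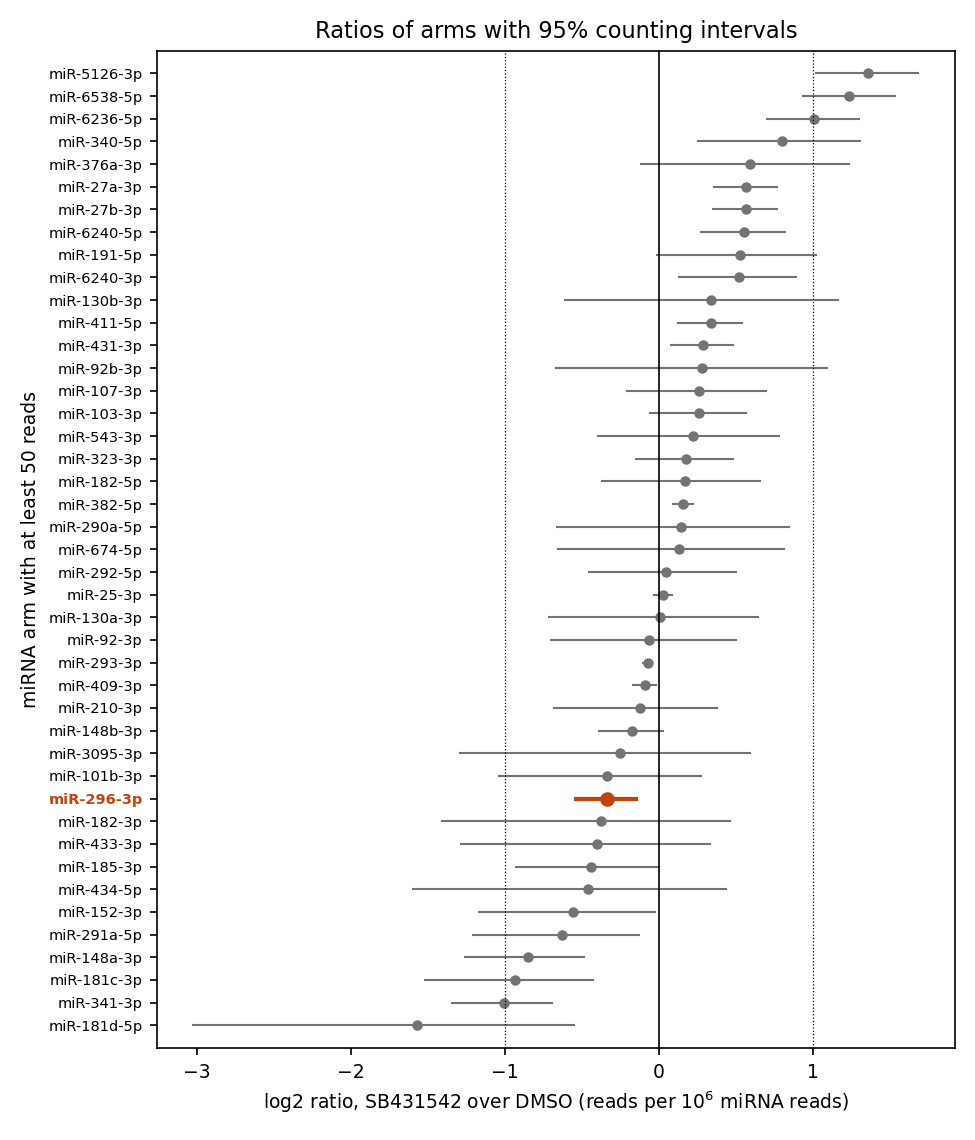
The log2 ratio of SB431542 to DMSO in RPM for the 43 arms with at least 50 reads, with 95% counting intervals from 1 library per group and dotted lines at 2-fold. miR-296-3p, in colour, lies at -0.34 with an interval below 0, and 10 arms lie further to the left.

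Arms of imprinted regions had ratios on both sides of 0. The list held the hairpins of the Gnas, H19, Mest, Igf2, Sfmbt2 and Dlk1-Dio3 regions, and some family members in it lie elsewhere in the genome. Of 137 such hairpins 65 had a read, and 11 arms were described, of which 0 were at least 2-fold higher, 1 at least 2-fold lower and 5 below 0. Over all 43 described arms 3 were at least 2-fold higher, 2 at least 2-fold lower and 18 below 0, a like share. The lower one, miR-341-3p, is named after its value was seen. Their median log2 ratio was 0.16, against 0.13 over all described arms, and without the Gnas pair 4 of the other 10 were below 0 and their median was 0.17. In a second list, the miRNAs reported in mouse embryonic stem cells to act on the coding regions of Nanog, Pou5f1 and Sox2, miR-134 and miR-470 had 0 reads in both libraries, which allows up to 138 RPM with SB431542 and 38.5 RPM with DMSO, so reads were found for Mir296 alone. Almost all of those were of miR-296-3p. The strand first named miR-296, miR-296-5p, had 2 reads with SB431542, under the floor of 3, and 4 with DMSO.

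Fragments typical of the labelled cell type were present, mostly from 1 arm. Of 6 listed hairpins of the miR-290 cluster, typical of mouse embryonic stem cells, 5 were found by symbol with a read. These 5 supplied 47.9% of miRNA reads with SB431542 and 50.4% with DMSO. Nearly all of that was 1 arm, miR-293-3p, with 10359 of 10437.5 reads with SB431542 and 38924 of 39297.5 with DMSO. The other hairpin, listed as Mir292a but annotated as Mir292, was left out of these sums by its name. It was not without reads, as miR-292-5p had 49 with SB431542 and 171 with DMSO. The miR-302 and miR-367 hairpins of primed pluripotent cells had 0 reads in both. Of other cell types, 4 of 6 fibroblast hairpins had a read and summed to 0.197% with SB431542 and 0.299% with DMSO, 3 of 3 neural ones to 0.0550% and 0.0757%, and 1 of 4 blood ones to 0 reads and 1 read. Of the reads of the fibroblast list, miR-152-3p alone supplied 32 of 43 with SB431542 and 170 of 233.167 with DMSO. The part of these other cell types in the lower miR-296-3p level was not tested. The files held 645925 reads with SB431542 and 1190074 with DMSO, of which 517535 and 990296 were of 15 to 17 nt and 21808 and 77907 were assigned to miRNAs. Longer reads are not in these sums, so they do not give library depth.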

How the data were processed

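Per the labels, total RNA was isolated with TRIzol and libraries were made with an Illumina TruSeq RNA kit. The authors deposited raw read counts per distinct sequence of 3 to 17 nt, with its length. For trimming, filters and aligner, the tool used was not given in the sources used here. Per the submitters' processing notes the build was mm9; coordinates here are GRCm38 from the annotation.

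Sequences of 15 to 17 nt were matched exactly to GENCODE M21 transcripts. A sequence was left out if it had a match in a different small RNA class or in over 5 further genes, which removed 0 sequences of the pair. Sequences shared by several miRNAs were divided equally, and the side of the hairpin that holds a sequence's midpoint gives its arm. Reads were scaled to the miRNA total of each library (RPM), and log2 ratios used a pseudocount of 0.5 read. Intervals are 95% Clopper-Pearson or exact conditional binomial ones. PCR reads without molecular identifiers are not independent molecules, so intervals and the floor of 3 reads cover counting error only. For the GC correction, SB431542 counts were divided by the median SB431542 to DMSO ratio of non-miRNA sequences (20 reads or more) of like GC content, in steps of 10%.

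Named were all strands of both hairpins, their leading sequences, and the 3 described arms nearest in log2 ratio. The members, lists and rules were chosen with earlier results of these data known. Alternatives were edgeR and DESeq2 scaling, other totals, pseudocount, lengths, filters and arms set by overlap with the RefSeq mature strand. The scripts were tested on simulated data. Python 3.11.15, numpy 2.4.6, scipy 1.17.1, matplotlib 3.10.9, R 4.3.3, edgeR 4.0.16 and DESeq2 1.42.0 were used.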

Additional observations from a re-analysis of the deposited data

How the results depend on the processing

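The log2 ratio of Mir296 stayed below 0 under the 12 alternatives that count reads, from -1.23 to -0.28. It was -0.63 with edgeR TMM factors, -0.58 with DESeq2 size factors, -1.23 with all reads of 15 to 17 nt as the total and -0.65 with the GC correction, which was chosen after seeing the data, as were the limits of 14 and 17 nt. Scaling moves every arm alike: the median of the 43 described arms was -0.17, -0.12 and -0.77 under the edgeR, DESeq2 and all-read scales, against 0.13 in RPM. Arms at least 2-fold higher and lower then numbered 1 and 4 (edgeR), 1 and 4 (DESeq2), 0 and 15 (all reads) and 2 and 4 (without the 5 most abundant arms in the total), against 3 and 2 in RPM. The 5 arms left out of that total include miR-296-3p itself. Counting distinct sequences turned the Mir296 ratio to 0.72. Each library held 7 of them, but the totals were 500 distinct miRNA sequences with SB431542 and 826 with DMSO. The same count gave a 3p share of 71.4% in both libraries and a Mir296 share of the pair of 87.5% with SB431542 and 63.6% with DMSO. For miR-296-3p it gave a share at base 1 of 60.0% and a 17 nt share of 40% in both. With at least 5 reads per sequence no Mir298 sequence was left, so its ratio has no value there, and the 3p share of Mir296 and its share of the pair were 100.0% in both libraries. That share of the pair was 100.0% with SB431542 for 17 nt alone too. No paired analysis was possible because each group has 1 library. The Mir298 ratio of -0.28 turned to 0.96 with a pseudocount of 5 reads and to 0.23 at a minimum length of 16 nt, both inside its interval, so it has no set direction. Setting arms by overlap gave a Mir298 5p share with DMSO of 83.3%. The few reads of miR-296-5p and Mir298 limit any statement on them.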
